A study of Mus musculus with 15 samples.

Results

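Mouse genes listed under a collagen symbol were described across 5 dissected regions of the embryonic brain. The members were chosen by name, as every row of the expression table whose symbol has the form Col, a type number, the letter a and a chain number. A collagen listed under any other symbol is not among them. The table holds 43 such genes among 24264. Of these, 26 reached 1 RPKM in at least 3 libraries and were tested, among 13745 genes tested in all, and the other 17 stayed below that level. RPKM is the number of reads on a gene per length of its model and per mapped read of the library, so levels of different genes can be compared.

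The 5 regions were the dorsal midbrain, ventral midbrain, alar plate, forebrain and hindbrain, with 3 samples each and 15 in all. All embryos were C57bl/6 at stage E12.5 and carried green fluorescent protein under the Th promoter, Th being the gene of tyrosine hydroxylase. There was no untreated or wild type group, so every comparison was between regions of reporter embryos. Tissue was dissected under a microscope, and the labels give neither which embryos the samples of a region came from nor where the alar plate tissue lay. The p-values therefore reflect how far these samples spread, and some of that spread may be technical.

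Collagens are secreted or membrane-bound proteins whose chains wind around each other in a triple helix. Fibrillar collagens assemble into the fibres of connective tissue. The collagens of networks, above all type IV, form the sheet of the basement membrane that lies under blood vessels and around the brain. The meninges, the connective tissue wrapped around the brain, make fibrillar collagen and lay down the basement membrane at the brain surface, and the neuroepithelium itself makes little of types I and III. Chains are hydroxylated, folded and trimmed by a set of enzymes and chaperones before they are deposited.

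The libraries held 8382937 to 12675198 reads in gene models, recovered from the RPKM values, and 3 reads on a gene of median length corresponded to 0.077 to 0.116 RPKM. In 3 regions 1 library stood apart from its pair: dorsal midbrain 3, with r of 0.967 and 0.971 across genes to the other two, alar plate 3, with 0.927 and 0.925, and forebrain 1, with 0.964 and 0.96. The 3 ventral midbrain libraries had r of 0.991 to 0.993 with each other. RPKM summed over all genes was 489420 in alar plate 3, against 374280 to 390992 in the other libraries. Levels in alar plate 3 may therefore not be on a par with those elsewhere, and the cause was not tested. Genes of the region labels were looked up as a check, chosen after the data had been seen. Foxa2 and Lmx1a, regulators of the floor plate, lay at 70.3 to 75.5 and 68.6 to 81.8 RPKM in ventral midbrain. Lmx1a also reached 41.3 RPKM in 1 forebrain library, and Foxa2 20.6 RPKM. Hoxa2 and Hoxb3, genes of the hindbrain, ranged between 0.107 and 11.1 and between 0 and 1.65 RPKM in the hindbrain libraries. En1 and En2, genes of the midbrain and the adjoining hindbrain, lay at 67 to 76.7 and 85.9 to 87.7 RPKM in ventral midbrain, but at 0.456 to 0.799 and 2.12 to 13.8 RPKM in dorsal midbrain, against 4.55 to 39.7 and 5.51 to 37 RPKM in hindbrain, so every dorsal midbrain library had less En1 than every hindbrain library. Pax7 and Pax3, transcription factors of the dorsal neural tube, were at 18.3 to 40.4 and 31.0 to 42.4 RPKM in dorsal midbrain, against 4.22 to 19.6 and 5.69 to 16.3 RPKM in alar plate.

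Collagen levels differed between the regions for most tested members. Of the 26, 22 (84.6%) passed a limma F test over the 5 regions at an adjusted p under 0.05, where 33.7% of all tested genes passed. The 4 that did not pass were Col11a1, Col9a2, Col12a1 and Col16a1. Summed over all 43 collagens, the level was 364, 385 and 253 RPKM in dorsal midbrain, 243, 243 and 249 in ventral midbrain, 366, 119 and 135 in alar plate, 131, 134 and 131 in forebrain and 209, 167 and 172 in hindbrain. The forebrain libraries were low and close together, while alar plate 1 lay between dorsal midbrain 1 and 2 and alar plate 2 was the lowest of all. Col2a1, Col4a1 and Col4a2 had the highest means over the 15 samples. The fibrillar class alone summed to 170.5, 177 and 122 RPKM in dorsal midbrain and 48.8, 49.8 and 54.3 in forebrain. Its sums were 119.9, 116.6 and 127.9 RPKM in ventral midbrain, 191.7, 44.6 and 62 in alar plate and 114.3, 75.1 and 80.3 in hindbrain. Alar plate 1 thus had the highest fibrillar sum, and dorsal midbrain 3 lay among the ventral midbrain libraries.

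**Figure D1:**
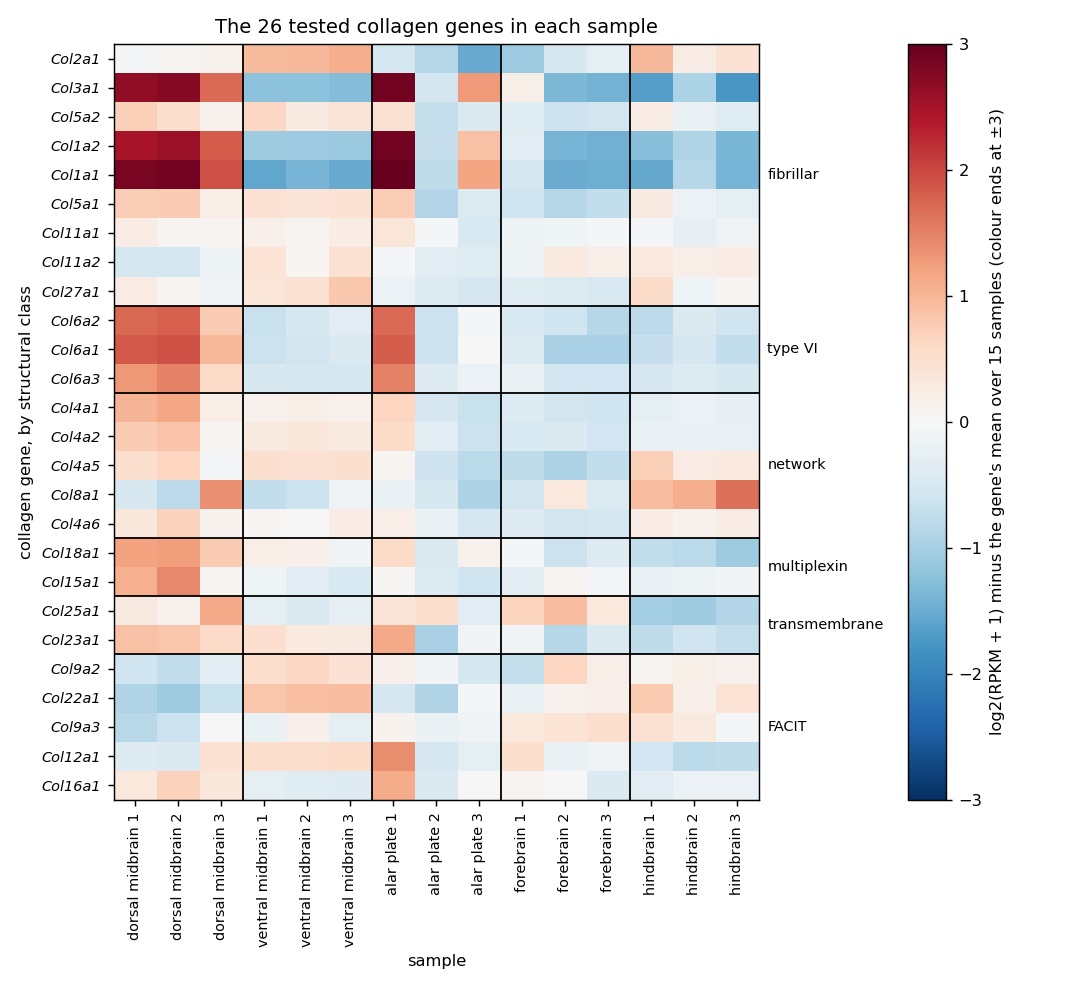
The 26 tested collagen genes (rows, grouped by structural class) in the 15 samples (columns), coloured by log2(RPKM + 1) minus the gene's mean over all samples. Dorsal midbrain 1 and 2 and alar plate 1 are dark red for Col1a1, Col1a2 and Col3a1 and a paler red for the Col6a genes. Ventral midbrain is red for Col2a1 and Col22a1.

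The dorsal midbrain had the most called collagens. Against the mean of the other 4 regions, 14 of the 26 members were higher (53.8%, where 18.2% of all genes were) and 4 were lower (15.4%, where 13.8% of all genes were), both directions together being 32% of all genes. The median difference of the members was 0.60 on the log2(RPKM + 1) scale, against 0.05 for all genes tested. The higher ones were the chains of types I, III and VI, both multiplexins, both tested transmembrane collagens, Col4a1, Col4a2, Col4a6 and Col5a1. Of these, Col6a1 and Col6a3 passed the filter of 1 RPKM in 3 libraries only through the dorsal midbrain, so their part in the count is not on a par with the share of all genes. The lower ones were 3 FACIT collagens, Col22a1, Col9a2 and Col9a3, and the fibrillar Col11a2. The count rested on the first dorsal midbrain pair of libraries: it was 8 without dorsal midbrain 1 and 9 without dorsal midbrain 2, and 19 without dorsal midbrain 3. Col4a1, Col4a2, Col4a6, Col5a1, Col6a3, Col9a2, Col9a3, Col11a2 and Col23a1 each lost their call without dorsal midbrain 1 and also without dorsal midbrain 2. Without all 3 libraries that stood apart it was 20. Counts after leaving out libraries are given here and below without the share of all genes called in the same fit. They do not show whether collagens moved more than other genes.

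**Figure D2:**
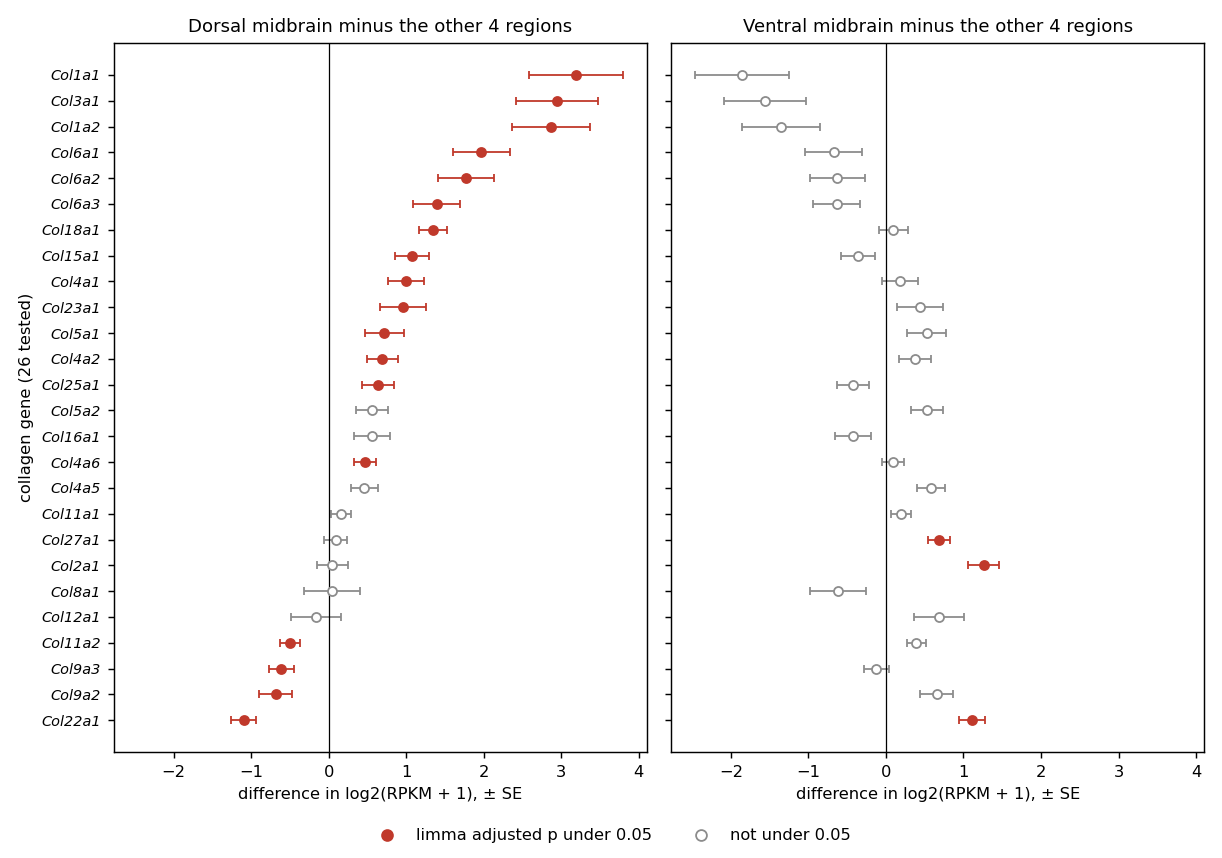
Difference in log2(RPKM + 1), with its standard error, for each of the 26 tested collagens in dorsal midbrain (left) and ventral midbrain (right) against the mean of the other 4 regions; filled points had a limma adjusted p under 0.05. Col1a1, Col3a1 and Col1a2 lie farthest to the right in dorsal midbrain, at 3.19, 2.95 and 2.87, and 3 points are filled in ventral midbrain, Col2a1, Col22a1 and Col27a1.

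Types I and III are the main fibrillar collagens of loose connective tissue, and their genes had the largest differences. Col1a1, the alpha-1 chain of type I collagen, was at 21.7, 22.5 and 11.1 RPKM in dorsal midbrain, against 0.0693, 0.213 and 0.116 in ventral midbrain, 38.3, 0.854 and 6.21 in alar plate, 1.19, 0.133 and 0.155 in forebrain and 0.0991, 0.747 and 0.203 in hindbrain. Col1a2, its partner alpha-2 chain, was at 27.4, 29.8 and 16.9 RPKM in dorsal midbrain, against 1.44, 1.4 and 1.36 in ventral midbrain, 36.6, 2.15 and 8.32 in alar plate, 3.12, 0.934 and 0.88 in forebrain and 1.11, 1.74 and 0.974 in hindbrain. Every dorsal midbrain library lay far above every ventral midbrain, forebrain and hindbrain library for both genes, and the alar plate libraries were spread on both sides. Col3a1, the single chain of type III collagen, was at 47.1, 49.6 and 24 RPKM in dorsal midbrain, against 2.29, 2.29 and 2.12 in ventral midbrain, 55.8, 4.23 and 17.5 in alar plate, 7.62, 2.03 and 1.85 in forebrain and 1.43, 2.95 and 1.27 in hindbrain. Alar plate 1 was the highest library for all 3 genes, and forebrain 1 was the highest of its region for all 3.

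The difference of the dorsal midbrain from the other 4 regions was 3.19 ± 0.60 (SE), adjusted p = 0.00297 for Col1a1. It was 2.95 ± 0.53 (SE), adjusted p = 0.0024 for Col3a1 and 2.87 ± 0.50 (SE), adjusted p = 0.00219 for Col1a2. Each p is from limma's test with Benjamini-Hochberg adjustment over all genes tested, as everywhere below. Against the ventral midbrain alone the 3 differences were 4.04, 3.60 and 3.38, with adjusted p of 0.00287, 0.00257 and 0.00282. In reads, Col1a1 had 1203, 1322 and 616 in dorsal midbrain, against 3, 12 and 6 in ventral midbrain, so the ventral level stood close to the floor of 3 reads. On the log2(RPKM + 1) scale such a difference is understated.

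The type I chains were not in one proportion. The ratio of Col1a1 to Col1a2 RPKM was 0.79, 0.753 and 0.659 in dorsal midbrain, against 0.0482, 0.152 and 0.0852 in ventral midbrain and 0.0896, 0.429 and 0.208 in hindbrain. In alar plate it was 1.05, 0.398 and 0.747. Col1a2 thus stayed at 0.88 RPKM or above in every library, while Col1a1 was at 0.213 RPKM or less in 7 of 15. The ratio of Col3a1 to Col1a2 varied less, at 1.72, 1.66 and 1.42 in dorsal midbrain and 1.59, 1.64 and 1.55 in ventral midbrain.

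**Figure D3:**
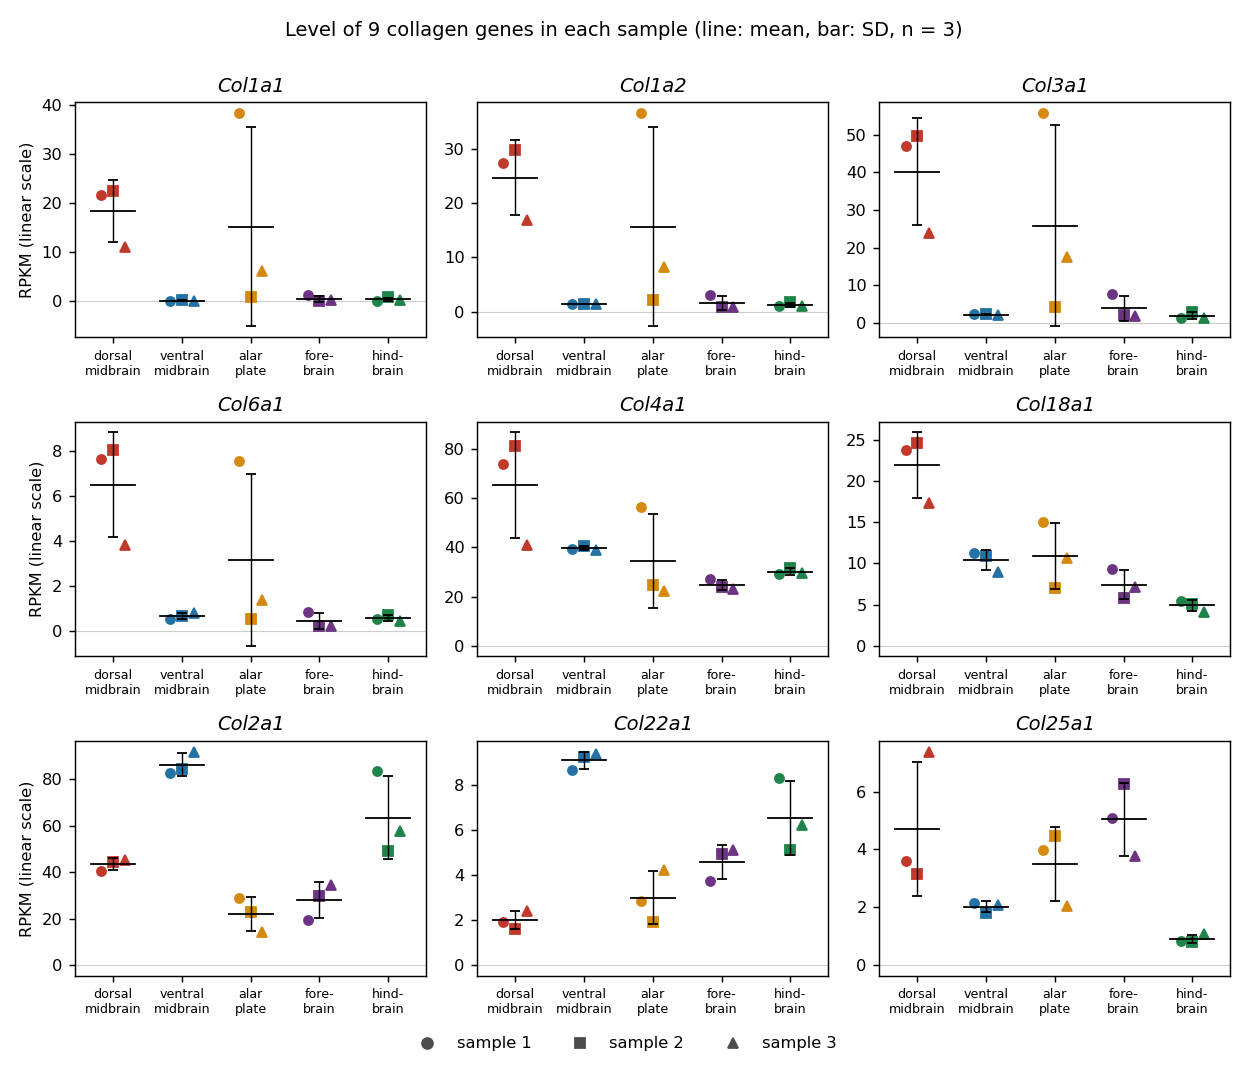
RPKM of 9 collagen genes in each of the 15 samples on linear axes; points are samples, the line is the mean of a region and the bar its SD (n = 3). For Col1a1, Col1a2, Col3a1 and Col6a1 the dorsal midbrain samples and alar plate 1 stand above all others, while Col2a1 and Col22a1 are high in ventral midbrain and hindbrain.

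The stretch of 250 bases before the gene start is shown for Col1a2 and Col3a1, whose levels moved together across the samples, to set their base composition side by side. Both windows are from RefSeq on GRCm38.p6, a later build than the mm9 of the expression table, and both lie on the plus strand. The Col1a2 window is chr6:4505368-4505617 and the Col3a1 window chr1:45311288-45311537. Capitals mark motifs, which were searched on both strands. One is the box CCAAT, another the TATA box written as TATAAA, and the third the GC box written as GGGCGG.
Col1a2: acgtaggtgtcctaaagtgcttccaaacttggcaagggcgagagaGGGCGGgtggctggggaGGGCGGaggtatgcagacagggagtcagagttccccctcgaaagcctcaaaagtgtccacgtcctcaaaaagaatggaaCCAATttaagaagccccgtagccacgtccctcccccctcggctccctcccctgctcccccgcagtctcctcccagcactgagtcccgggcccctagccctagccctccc
Col3a1: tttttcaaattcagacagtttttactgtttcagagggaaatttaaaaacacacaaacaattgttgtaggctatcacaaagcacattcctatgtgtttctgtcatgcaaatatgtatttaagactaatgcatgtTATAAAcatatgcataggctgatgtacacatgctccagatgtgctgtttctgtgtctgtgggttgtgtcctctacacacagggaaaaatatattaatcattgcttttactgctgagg
The Col1a2 window was 62% G and C and held CCAAT 109 bases before the start and GGGCGG at 205 and 188 bases. The Col3a1 window was 35.2% G and C and held TATAAA 117 bases before the start and none of the others. A window was found for 35 of the 43 members, not for Col1a1. Of the 13 collagens higher in dorsal midbrain that had one, 5 held CCAAT, 8 held GGGCGG and 1 held TATAAA, where 33.8%, 32.7% and 12.4% of all 32851 windows did. Of the 2 called lower there that had one, 0 held CCAAT, 2 held GGGCGG and 1 held TATAAA. Of the 5 not called, the counts were 3, 5 and 0, so GGGCGG was not particular to the higher members. A gene was counted if any of its windows held the motif, while the shares are per window.

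The other fibrillar collagens differed less. Col5a1 and Col5a2 encode chains of type V collagen, which joins type I fibrils and controls their width. Col5a2 was at 16.5, 14.5 and 10.4 RPKM in dorsal midbrain, against 15.4, 11.9 and 12.9 in ventral midbrain, 13.7, 5.51 and 6.97 in alar plate, 7.27, 5.91 and 6.29 in forebrain and 11.5, 8.11 and 7.38 in hindbrain. The dorsal and ventral midbrain overlapped, and the forebrain was low. The difference of the dorsal midbrain from the other 4 regions was 0.72 ± 0.25 (SE), adjusted p = 0.042 for Col5a1, whose mean was 7.21 ± 1.68 RPKM in dorsal midbrain, against 6.27 ± 0.126 in ventral midbrain and 2.27 ± 0.299 in forebrain (SD, n = 3 each). That call was lost under 11 of 25 alternatives, among them scaling by median ratios and leaving out any ventral midbrain library. Col5a2 did not pass, at 0.56 ± 0.21 (SE), adjusted p = 0.0553. Col11a1, a chain of type XI collagen found in cartilage fibrils, ranged between 2.84 and 5.8 RPKM in all 15 libraries. Col11a2, its partner chain, was at 1.95, 1.99 and 2.87 RPKM in dorsal midbrain, against 4.68, 3.48 and 4.89 in ventral midbrain, 3.2, 2.37 and 2.33 in alar plate, 2.82, 4.23 and 3.8 in forebrain and 4.25, 3.8 and 4.01 in hindbrain. It was lower in dorsal midbrain, with a difference of -0.50 from the other 4 regions (adjusted p = 0.0112) and of -0.71 from the ventral midbrain (adjusted p = 0.00769).

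Col2a1 was the most abundant collagen of the ventral midbrain and one of 3 members called there. It encodes the single chain of type II collagen, the main fibril of cartilage, which is also made for a time by embryonic neuroepithelium and the notochord. It was at 82.8, 84.3 and 91.8 RPKM in ventral midbrain, against 40.7, 44.2 and 45.4 in dorsal midbrain, 29.1, 22.8 and 14.1 in alar plate, 19.5, 30.0 and 34.3 in forebrain and 83.7, 49.1 and 57.7 in hindbrain. The ventral midbrain libraries lay above all others except hindbrain 1, which lay among them, and the alar plate held the lowest library. Against the other 4 regions Col2a1 was higher in ventral midbrain, with a difference of 1.26 ± 0.20 (SE), adjusted p = 0.000985, and lower in alar plate, with -1.21 ± 0.20 (SE), adjusted p = 0.0044. It was lower in dorsal midbrain than in ventral midbrain, with a difference of -0.98 ± 0.25 (SE), adjusted p = 0.0154. Of the 8 cartilage markers in the table none reached the level for testing, Matn1 was at 0 in all 15 libraries and Acan was at most 0.0458 RPKM. Their summed level was 0.655, 0.48 and 0.76 RPKM in ventral midbrain and 1.09, 0.899 and 0.945 in dorsal midbrain.

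The other members called in ventral midbrain were Col22a1 and Col27a1, so that 3 of 26 were higher (11.5%, where 7.43% of all genes were) and 0 lower (where 3.16% were), both directions together being 10.6% of all genes. At an unadjusted p under 0.05, 7 members were higher and 3 lower, and limma-voom on the recovered reads called 5, all higher. The median difference of the members was 0.14, against -0.02 for all genes. Col27a1, a fibrillar collagen of cartilage, was at 1.61, 1.78 and 2.52 RPKM in ventral midbrain, against 1.41, 1.1 and 0.874 in dorsal midbrain, 0.778, 0.509 and 0.417 in alar plate, 0.566, 0.523 and 0.469 in forebrain and 1.95, 0.828 and 1.1 in hindbrain. Ventral midbrain 1 and 2 fell below hindbrain 1, and the difference from the other 4 regions was 0.68 ± 0.14 (SE), adjusted p = 0.00704. Without alar plate 1 the count of members called in ventral midbrain was 12, with 9 higher and 3 lower, and without the 3 libraries that stood apart it was 10.

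Type VI collagen is a beaded filament of connective tissue around cells, built from the products of Col6a1, Col6a2 and Col6a3. All 3 genes were higher in dorsal midbrain. Col6a1 and Col6a3 reached 1 RPKM only in dorsal midbrain and alar plate libraries and were tested only through the dorsal midbrain levels. Col6a1 was at 7.63, 8.06 and 3.83 RPKM in dorsal midbrain, against 0.544, 0.67 and 0.798 in ventral midbrain, 7.55, 0.552 and 1.39 in alar plate, 0.849, 0.235 and 0.242 in forebrain and 0.513, 0.712 and 0.458 in hindbrain. Col6a2 was at 9.64, 10.1 and 4.43 RPKM in dorsal midbrain, against 1.01, 1.29 and 1.55 in ventral midbrain, 9.53, 1.05 and 2.07 in alar plate, 1.33, 1.14 and 0.774 in forebrain and 0.869, 1.38 and 1.12 in hindbrain. Col6a3 was at 2.82, 3.34 and 1.3 RPKM in dorsal midbrain, against 0.122, 0.078 and 0.0849 in ventral midbrain, 3.35, 0.191 and 0.384 in alar plate, 0.353, 0.0486 and 0.0376 in forebrain and 0.104, 0.172 and 0.111 in hindbrain. Every dorsal midbrain library lay above every ventral midbrain, forebrain and hindbrain library for the 3 genes, and alar plate 1 was close to dorsal midbrain 1 and 2. The differences from the other 4 regions were 1.97 ± 0.37 (SE), adjusted p = 0.00283 for Col6a1, 1.77 for Col6a2 (adjusted p = 0.00401) and 1.39 for Col6a3 (adjusted p = 0.00538). Col6a1 was at 0.792, 0.8 and 0.863 of the Col6a2 level in dorsal midbrain, against 0.537, 0.518 and 0.514 in ventral midbrain. The later members of the family, Col6a4, Col6a5 and Col6a6, did not exceed 0.278 RPKM in any library.

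The network collagens held the most abundant members after Col2a1. Col4a1 and Col4a2 encode the chains of the common type IV collagen of basement membranes. Col4a1 was at 73.8, 81.4 and 41.1 RPKM in dorsal midbrain, against 39.3, 40.5 and 38.9 in ventral midbrain, 56.6, 24.8 and 22.1 in alar plate, 27, 23.9 and 23.3 in forebrain and 29.1, 31.7 and 29.8 in hindbrain. Col4a2 was at 44.3, 46.7 and 26.3 RPKM in dorsal midbrain, against 31.2, 32.7 and 31.1 in ventral midbrain, 38.1, 19.8 and 15.8 in alar plate, 18.2, 18.8 and 16.7 in forebrain and 22.1, 21.9 and 21.7 in hindbrain. Dorsal midbrain 1 and 2 were the highest libraries for both genes and alar plate 1 came next, while dorsal midbrain 3 lay near or below the ventral midbrain. Against the other 4 regions the dorsal midbrain was higher by 0.99 ± 0.23 (SE), adjusted p = 0.00768 for Col4a1 and by 0.69 ± 0.20 (SE), adjusted p = 0.0213 for Col4a2, and both calls were lost without dorsal midbrain 1 or without dorsal midbrain 2. Against the ventral midbrain alone neither passed, with 0.65 (adjusted p = 0.127) and 0.25 (adjusted p = 0.508). In RefSeq on GRCm38.p6 the genes lie head to head on chromosome 8. The ratio of Col4a1 to Col4a2 RPKM was 1.67, 1.74 and 1.56 in dorsal midbrain, against 1.26, 1.24 and 1.25 in ventral midbrain.

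Col4a5 and Col4a6 encode less common type IV chains and lie head to head on the X chromosome, their starts 1343 bases apart. Col4a5 was at 2.04, 1.71 and 2.05 RPKM in forebrain, against 6.12, 5.88 and 6.17 in ventral midbrain, 6.14, 7.04 and 4.02 in dorsal midbrain, 4.4, 2.34 and 1.93 in alar plate and 7.4, 5.03 and 5.31 in hindbrain. The forebrain and alar plate 2 and 3 were low, and the other libraries were at 4.02 RPKM or above. Col4a6 was at 0.422, 0.268 and 0.293 RPKM in forebrain, against 0.887, 0.822 and 1.16 in ventral midbrain, 1.34, 2.01 and 0.976 in dorsal midbrain, 1.12, 0.619 and 0.304 in alar plate and 1.16, 1.04 and 1.17 in hindbrain. In forebrain both were lower than in the other 4 regions, with a difference of -1.01 ± 0.17 (SE), adjusted p = 0.0109 for Col4a5 and of -0.60 ± 0.14 (SE), adjusted p = 0.0426 for Col4a6. They were the 2 members called there (0 higher, where 0.618% of all genes were, and 7.69% lower, where 2.3% were, both directions together being 2.92% of all genes). The median difference of the members in forebrain was -0.57, against -0.03 for all genes, and 13 members were lower and 2 higher at an unadjusted p under 0.05. Without the 3 libraries that stood apart, forebrain 1 among them, 15 members were called in forebrain, 12 of them lower. The count was 9 without dorsal midbrain 3 alone and 0 without forebrain 2, where the call of Col4a5 was lost too. The call of Col4a6 was lost under 12 of 24 alternatives. Col4a6 was called in dorsal midbrain too, at 0.47 ± 0.14 (SE), adjusted p = 0.0244. The paired chains Col4a3 and Col4a4 did not exceed 0.0844 RPKM in any library.

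Col8a1, a short-chain collagen that forms lattices in vessel walls and the eye, was the member called higher in hindbrain. It was at 2.97, 3.42 and 5.54 RPKM in hindbrain, against 0.498, 0.203 and 4.37 in dorsal midbrain, 0.255, 0.327 and 0.927 in ventral midbrain, 0.803, 0.494 and 0.0938 in alar plate and 0.43, 1.59 and 0.569 in forebrain. Dorsal midbrain 3 exceeded 2 of the 3 hindbrain libraries while its pair lay at 0.498 and 0.203 RPKM. The difference of the hindbrain was 1.53 ± 0.36 (SE), adjusted p = 0.0246. The call was lost on leaving out any single hindbrain library. Outside the hindbrain Col8a1 reached 1 RPKM only in dorsal midbrain 3 and forebrain 2, so it was tested only through the hindbrain levels then compared. In hindbrain 1 of 26 members was higher (3.85%, where 4.03% of all genes were) and 2 were lower (7.69%, where 2.27% were), both directions together being 6.3% of all genes. The lower members were Col18a1 and Col25a1, and the median difference of the members was -0.22, against -0.01 for all genes. Without alar plate 1 the count was 9, with 3 higher and 6 lower. Mural cell markers were higher in hindbrain for 2 of 12 tested, Vtn by 2.45 and Tagln by 0.83, and their summed level was 159, 152 and 164 RPKM in hindbrain, against 65.4 to 118.5 RPKM in the other regions. Vtn alone took 83.1, 79.1 and 89.7 RPKM of that sum in hindbrain, against 5.49 to 32.5 RPKM in the other regions, so the sum reflects mainly this gene. The part of mural cells in the collagen differences was not tested.

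The multiplexins Col15a1 and Col18a1 anchor basement membranes to the matrix beside them, and the end of Col18a1 is cut off as endostatin, an inhibitor of vessel growth. Both were higher in dorsal midbrain. Col18a1 was at 23.8, 24.7 and 17.4 RPKM in dorsal midbrain, against 11.3, 10.9 and 8.99 in ventral midbrain, 15.1, 6.98 and 10.7 in alar plate, 9.29, 5.83 and 7.19 in forebrain and 5.49, 5.12 and 4.1 in hindbrain. All 3 dorsal midbrain libraries lay above the other 12, and the hindbrain was lowest. The difference of the dorsal midbrain was 1.35 ± 0.18 (SE), adjusted p = 0.000529, and that of the hindbrain -1.09 ± 0.18 (SE), adjusted p = 0.00284. Col15a1 was at 3.25, 4.53 and 1.17 RPKM in dorsal midbrain, against 0.88, 0.645 and 0.497 in ventral midbrain, 1.08, 0.534 and 0.343 in alar plate, 0.601, 1.16 and 1 in forebrain and 0.772, 0.835 and 0.928 in hindbrain. Here dorsal midbrain 3 lay just above forebrain 2, and the difference was 1.08 ± 0.22 (SE), adjusted p = 0.00407. Col18a1 kept its calls in dorsal midbrain under all 25 alternatives.

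Col25a1 and Col23a1 span the cell membrane. Col25a1 is made by neurons and is needed for motor nerves to enter muscle. It was at 3.61, 3.16 and 7.38 RPKM in dorsal midbrain, against 2.16, 1.81 and 2.1 in ventral midbrain, 3.99, 4.46 and 2.05 in alar plate, 5.1, 6.26 and 3.76 in forebrain and 0.84, 0.811 and 1.07 in hindbrain. The hindbrain libraries were the lowest 3, and dorsal midbrain 3 stood well above its pair. The hindbrain difference was -1.26 ± 0.21 (SE), adjusted p = 0.00275, and the dorsal midbrain difference 0.64 ± 0.21 (SE), adjusted p = 0.034. The call in dorsal midbrain was lost under 8 of 25 alternatives, among them leaving out dorsal midbrain 1 or 3. Col23a1 was at 4.56, 4.36 and 3.5 RPKM in dorsal midbrain, against 3.27, 2.69 and 2.63 in ventral midbrain, 5.68, 0.544 and 1.83 in alar plate, 1.82, 0.664 and 1.24 in forebrain and 0.792, 0.992 and 0.83 in hindbrain. Alar plate 1 was the highest library and alar plate 2 the lowest, and the dorsal midbrain difference was 0.95 ± 0.30 (SE), adjusted p = 0.0282. Col13a1, a membrane collagen of cell contacts, was too low to be tested, with 18, 18 and 13 reads in dorsal midbrain, 1, 1 and 1 in ventral midbrain, 44, 1 and 11 in alar plate and 0 in each forebrain and hindbrain library.

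The FACIT collagens sit on the surface of other fibrils. In dorsal midbrain 0 of the 5 tested were higher, where 18.2% of all genes were, and 3 were lower, where 13.8% were. The others were Col16a1, with a difference of 0.56 ± 0.23 (SE), adjusted p = 0.0864, and Col12a1, with -0.16 ± 0.32 (SE), adjusted p = 0.723. Col16a1 reached 1 RPKM only in the 3 dorsal midbrain libraries and alar plate 1, so it was tested only through the levels then compared. Col22a1, found at tissue junctions such as those of muscle and tendon, was at 1.93, 1.61 and 2.41 RPKM in dorsal midbrain, against 8.64, 9.25 and 9.35 in ventral midbrain, 2.85, 1.9 and 4.22 in alar plate, 3.73, 4.94 and 5.09 in forebrain and 8.32, 5.09 and 6.2 in hindbrain. All 3 dorsal midbrain libraries lay below every ventral midbrain, forebrain and hindbrain library, and the ventral midbrain libraries were the highest. Its difference was -1.09 ± 0.16 (SE), adjusted p = 0.000929 in dorsal midbrain and 1.11 ± 0.16 (SE), adjusted p = 0.00054 in ventral midbrain, each against the other 4 regions, and -1.76 between the dorsal and the ventral midbrain (adjusted p = 8.2e-05). It kept these calls under every alternative run.

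Col9a1, Col9a2 and Col9a3 encode the chains of type IX collagen, which covers type II fibrils in cartilage. Col9a2 was at 3.64, 3.21 and 4.63 RPKM in dorsal midbrain, against 9.04, 9.77 and 8.42 in ventral midbrain, 6.73, 5.62 and 3.85 in alar plate, 3.29, 9.95 and 6.98 in forebrain and 6.35, 6.93 and 6.64 in hindbrain. Col9a3 was at 1.17, 1.47 and 2.85 RPKM in dorsal midbrain, against 2.37, 3.27 and 2.21 in ventral midbrain, 3.16, 2.37 and 2.59 in alar plate, 3.76, 4.15 and 4.53 in forebrain and 4.32, 3.71 and 2.67 in hindbrain. The dorsal midbrain libraries were among the lowest for both, though dorsal midbrain 3 overlapped the others for Col9a3. The dorsal midbrain differences were -0.68 ± 0.21 (SE), adjusted p = 0.0277 for Col9a2 and -0.61 ± 0.16 (SE), adjusted p = 0.014 for Col9a3. Col9a1 did not exceed 0.334 RPKM. Col12a1 and Col16a1 did not pass in any comparison, and alar plate 1 was the highest library for both, at 4.54 and 2.88 RPKM.

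Between the dorsal and the ventral midbrain 13 members were called, 9 higher in dorsal midbrain (34.6%, where 12.4% of all genes were) and 4 lower (15.4%, where 11.4% were), both directions together being 23.9% of all genes. The 9 were Col1a1, Col3a1, Col1a2, Col6a1, Col6a2, Col6a3, Col15a1, Col18a1 and Col25a1, and the 4 were Col22a1, Col9a2, Col2a1 and Col11a2. Here too Col6a1 and Col6a3 were tested only through the dorsal midbrain levels. The median difference of the members was 0.36, against 0.05 for all genes. Of the 5 tested network collagens 0 passed, Col4a1 coming closest. The calls of Col25a1 and Col2a1 were also lost without ventral midbrain 3, and those of Col25a1 and Col9a2 without ventral midbrain 2. The count was 8 without dorsal midbrain 1 and 8 without dorsal midbrain 2, and 17 without the 3 libraries that stood apart.

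Between the dorsal midbrain and the alar plate 0 of 26 members passed in limma, where 1.67% of all genes did, 1.26% higher and 0.415% lower, and limma-voom on recovered reads also called 0. At an unadjusted p under 0.05, 12 members were higher in dorsal midbrain and 0 lower, and the median difference of the members was 0.72, against 0.04 for all genes. The lowest adjusted p was 0.0506, for Col15a1. Without alar plate 1, 15 members were called, all higher in dorsal midbrain. The share of all genes called without that library is not given here, so the rise cannot be read as particular to collagens. Without dorsal midbrain 3, 6 were higher and 1 lower, and without forebrain 1, 3 were higher. Alar plate 1 lay above alar plate 2 and 3 for 24 of the 26 members. Of the 14 members called higher in dorsal midbrain, alar plate 1 was at or above the lowest dorsal midbrain library for 12 and above all 3 for 5. Against the other 4 regions the alar plate had 1 member called, Col2a1, which was lower (3.85%, where 3.41% of all genes were lower and 4.66% called in either direction), and 7 lower ones without alar plate 1. Without alar plate 2 it had 3 higher and 1 lower, and without alar plate 3, forebrain 1 or hindbrain 2 it had 2, both lower.

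Of the 17 collagens too low to be tested, all but Col8a2, Col13a1 and Col14a1 were under 1 RPKM in every library. Col10a1, a network collagen of growth cartilage, was at 0.309, 0.37 and 0.259 RPKM in ventral midbrain, against 0, 0 and 0 in dorsal midbrain, 0.0227, 0.0249 and 0 in alar plate, 0, 0.0329 and 0 in forebrain and 0.0883, 0 and 0.0502 in hindbrain. Its level in ventral midbrain was thus low but present in all 3 libraries, while it was listed at 0 in the 3 dorsal midbrain libraries. Col24a1, a fibrillar collagen of developing bone, averaged 0.222 ± 0.017 RPKM in dorsal midbrain, against 0.0679 ± 0.0409 in ventral midbrain and 0.0325 ± 0.0186 in alar plate (SD, n = 3 each). Col28a1, a collagen of the sheath around nerves, averaged 0.0329 ± 0.0122 RPKM in dorsal midbrain, against 0.477 ± 0.17 in ventral midbrain. It averaged 0.28 RPKM in hindbrain, 0.205 in forebrain and 0.122 in alar plate. In reads, Col28a1 had 2, 1 and 2 in dorsal midbrain and 11, 30 and 26 in ventral midbrain. Col24a1 had 19, 21 and 17 reads in dorsal midbrain, 7, 6 and 2 in ventral midbrain and 5, 3 and 1 in alar plate. The lowest of these counts lay at or below the floor of 3 reads. Col8a2 was at 3.53 RPKM in alar plate 1 and at 1.01 RPKM or less elsewhere, and Col14a1 reached 1.66 RPKM in dorsal midbrain 2. Col4a3, Col4a4, Col5a3, Col6a4, Col6a5, Col6a6, Col7a1, Col9a1, Col17a1, Col19a1 and Col20a1 reached at most 0.687 RPKM.

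Markers of other tissues that a dissected piece can carry were tested in the same fit, in which 18.2% of all genes were higher and 13.8% lower in dorsal midbrain against the other 4 regions. In such bulk samples fewer cells of a type and less RNA per cell cannot be told apart. Of 20 markers of meninges and mesenchyme, 12 were tested and 8 were higher in dorsal midbrain against the other 4 regions, with 0 lower and a median of 0.96. Among the 8, Foxc1, Tbx18 and Slc6a13 reached 1 RPKM only in dorsal midbrain and alar plate libraries and passed the filter through the dorsal midbrain. The counts of this list are therefore not on a par with the shares of all genes. Lum, a proteoglycan that binds collagen fibrils, was at 11.1, 10.5 and 5.66 RPKM in dorsal midbrain, against 0, 0 and 0 in ventral midbrain, 15, 0.517 and 8.09 in alar plate, 1.08, 0.196 and 0.0379 in forebrain and 0, 0.196 and 0 in hindbrain. Dcn, a related proteoglycan, was at 6.33, 7.17 and 5 RPKM in dorsal midbrain, against 0.914, 1.48 and 1.57 in ventral midbrain, 10.6, 0.331 and 4.25 in alar plate, 1.54, 0.244 and 0.264 in forebrain and 1.61, 1.88 and 1 in hindbrain. Both were high in the 3 dorsal midbrain libraries and in alar plate 1 and 3, and low in alar plate 2. Their differences in dorsal midbrain were 2.50 ± 0.49 (SE), adjusted p = 0.00346 for Lum and 1.51 ± 0.45 (SE), adjusted p = 0.0222 for Dcn. Twist1 and Slc6a13, a mesenchymal transcription factor and a meningeal transporter, were higher by 1.45 and 1.14. The 4 that did not pass were Foxd1, Postn, Crabp2 and Pdgfra. Against the ventral midbrain alone 5 of the 12 were higher in dorsal midbrain and 1 was lower, where 12.4% and 11.4% of all genes were. The lower one was Postn, a matricellular protein, which was at 1.65, 2.76 and 0.561 RPKM in dorsal midbrain, against 13.2, 11.4 and 8.98 RPKM in ventral midbrain, with a difference of -2.27 ± 0.74 (SE), adjusted p = 0.0414. Summed without Crabp2, which neural tissue also makes and which took much of the total in several libraries, the markers were at 62.7, 67.7 and 39.3 RPKM in dorsal midbrain, against 30.2, 30.3 and 28.8 in ventral midbrain, 86.6, 14.1 and 42.1 in alar plate, 21.6, 22.2 and 24.4 in forebrain and 17.3, 17.3 and 16.8 in hindbrain. With Crabp2 the sums were 168, 146 and 78.8 RPKM in dorsal midbrain, against 44, 40.0 and 36.6 in ventral midbrain, 193, 102 and 167 in alar plate, 127.5, 44.1 and 45.4 in forebrain and 66.3, 62.5 and 54 in hindbrain, forebrain 1 lying above dorsal midbrain 3. The part of this tissue in the collagen differences was not tested.

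Endothelial markers were higher in dorsal midbrain for 6 of 16, among them Emcn by 0.82 and Cdh5 by 0.69, and 1, Mfsd2a, was lower, with a difference of -0.59. Of all genes 18.2% were higher and 13.8% lower there, which holds for each dorsal midbrain count in this paragraph. Their summed level was 111, 118 and 84.3 RPKM in dorsal midbrain and 105, 71.8 and 93.1 in alar plate, and 72.1 to 96.7 RPKM in the other regions. Of 12 tested mural cell markers, 1 was higher in dorsal midbrain (Anpep, 0.75) and 1 lower (Acta2, -0.30). Of 8 tested macrophage markers 3 were higher, Mrc1 by 1.45, Lyve1 by 1.10 and Fcgr3 by 0.58, the first pair being known from macrophages at the brain's borders. Mrc1 and Lyve1 reached 1 RPKM only in the 3 dorsal midbrain libraries and alar plate 1, so they were tested only through the levels then compared. Choroid plexus markers summed to 95.5 RPKM in alar plate 3, against 0.717 to 11.9 RPKM in the other 14 libraries. Ttr alone took 89.3 RPKM of that sum, against at most 0.859 RPKM in any other library, so the sum reflects mainly this gene. Markers of neuroepithelium and radial glia were high in every library, with sums of 933 to 1940 RPKM. Of the tested markers of other tissues, in dorsal midbrain 3 of 10 for neuroepithelium were higher and 2 lower, 1 of 5 for erythroid cells and 1 of 3 for muscle were higher, 1 of 3 for Schwann cells and ganglia was lower, the 1 for choroid plexus was lower and the 1 for skin did not pass. The part of these cells in the collagen levels was not tested.

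Across the 15 samples, 15 relations of 5 collagens with 3 marker lists were computed as a family. For Col1a1 and Col3a1 the libraries fell into 2 clusters, with the 3 dorsal midbrain libraries and alar plate 1 and 3 at 6.21 RPKM or more for Col1a1 and the other 10 libraries at 1.19 RPKM or less, so a relation over all libraries could not be tested. Taken as deviations from the mean of each region, as a description over the 15 libraries, the level of Col1a1 had r = 0.984 and rho = 0.875 with the meningeal markers, and r = 0.888 without alar plate 1 and 2. For Col3a1 the values were r = 0.947 and rho = 0.95, and r = 0.893 without the same pair. With the endothelial markers the deviations had r = 0.739 and rho = 0.464 for Col1a1 and r = 0.664 and rho = 0.371 for Col3a1. Without dorsal midbrain 3 and alar plate 1 these r were 0.678 and 0.511. With the mural markers r was 0.643 and 0.496 and rho 0.586 and 0.421, and r fell to 0.397 and 0.256 without alar plate 1 and 3.

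Col4a1 rose with the endothelial markers, with r = 0.927 and rho = 0.821 (n = 15, adjusted permutation p = 0.00015 and 0.0024 over the 15 relations). Without dorsal midbrain 1 and 2, the libraries farthest from the median, r was 0.816. As deviations from the mean of each region, r was 0.848, and 0.678 without dorsal midbrain 3 and alar plate 1. Col4a1 rose with the meningeal markers too, with r = 0.673 and rho = 0.582 (adjusted permutation p = 0.014 and 0.0624), r = 0.485 without dorsal midbrain 2 and alar plate 1, and r = 0.76 within regions. With the mural markers it had r = 0.43 and rho = 0.493 (adjusted permutation p = 0.165 and 0.137), and r = 0.797 within regions, which fell to 0.539 without alar plate 1 and 3. Col2a1 rose with the mural markers, with r = 0.737 and rho = 0.707 (adjusted permutation p = 0.00937 and 0.0172), and r = 0.584 without alar plate 3 and forebrain 1. Within regions r was 0.429, and -0.0456 without alar plate 1 and 3. Col9a3 fell with the endothelial markers, with r = -0.706 and rho = -0.639 (adjusted permutation p = 0.0107 and 0.0358), and with r = -0.289 without dorsal midbrain 1 and 2, on which the relation rested, and r = -0.341 within regions. The permutations shuffled all 15 libraries without regard to region, while the libraries of a region are alike. These p-values therefore cannot tell a relation between samples from differences between the regions. These levels share their libraries and their normalisation.

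**Figure D4:**
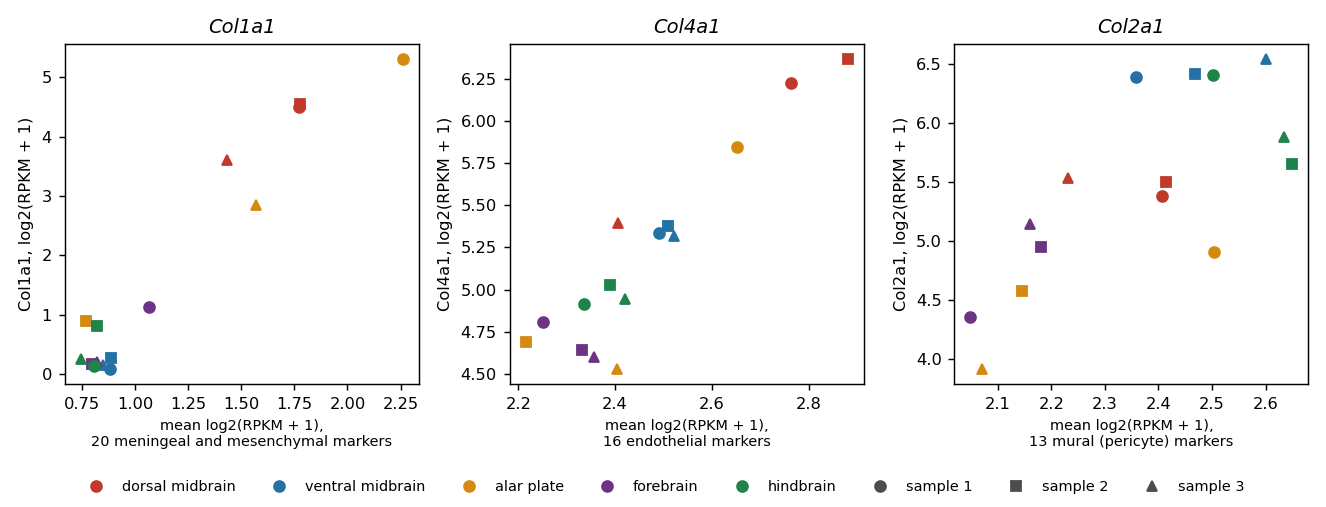
Level of Col1a1, Col4a1 and Col2a1 (vertical axes, log2(RPKM + 1)) against the mean level of a marker list (horizontal axes, same scale) in the 15 samples, coloured by region and shaped by sample number. For Col1a1 the 3 dorsal midbrain samples and alar plate 1 and 3 form a group above the other 10, and Col4a1 climbs with the endothelial markers at r = 0.927.

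The list of genes of collagen synthesis covers the enzymes that hydroxylate and glycosylate chains, the chaperones that fold them, the proteases that trim them and the oxidases that cross-link fibres, with 30 genes in the table and 27 tested. In ventral midbrain, where types I and III were low, 12 of the 27 were higher against the other 4 regions and 0 lower, where 7.43% and 3.16% of all genes were, with a median of 0.35 where that of all genes was -0.02. In dorsal midbrain 5 were higher and 6 lower, where 18.2% and 13.8% of all genes were, with a median of -0.03. P4ha3, a catalytic subunit of prolyl 4-hydroxylase, was at 23.7, 27.7 and 29.2 RPKM in ventral midbrain, against 0.843, 0.861 and 1.27 in dorsal midbrain, 2.51, 2.06 and 0.755 in alar plate, 1.03, 6.14 and 7.97 in forebrain and 26.8, 21.4 and 24.7 in hindbrain. Plod2, a lysyl hydroxylase, was at 17, 17.5 and 18 RPKM in ventral midbrain, against 5.37, 5.18 and 5.64 in dorsal midbrain, 4.45, 3.25 and 4.34 in alar plate, 4.41, 5.03 and 4.93 in forebrain and 15.4, 9.68 and 10.9 in hindbrain. Ventral midbrain and hindbrain stood above the other 3 regions for both genes, with no overlap. The ventral midbrain differences were 2.45 ± 0.33 (SE), adjusted p = 0.000308 for P4ha3, 1.41 for Plod2, 1.29 for the prolyl 3-hydroxylase Leprel1 and 1.15 for the galactosyltransferase Glt25d2, the last 3 with adjusted p of 4e-06, 5.05e-06 and 0.000474. Leprel1 reached 1 RPKM in the ventral midbrain libraries alone, so it was tested only through the levels then compared.

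In dorsal midbrain the higher genes were Loxl1, Crtap, Loxl2, Fkbp10 and Loxl3. Loxl1, which cross-links fibres, was at 2.46, 2.4 and 2.37 RPKM in dorsal midbrain, against 0.419, 0.819 and 0.676 in ventral midbrain, 2.33, 0.514 and 1.34 in alar plate, 1.01, 0.402 and 0.455 in forebrain and 0.332, 0.248 and 0.189 in hindbrain. Crtap, a partner of the prolyl 3-hydroxylases, was at 6.14, 6.7 and 4.97 RPKM in dorsal midbrain, against 1.9, 3.34 and 3.48 in ventral midbrain, 4.49, 2.26 and 5.39 in alar plate, 2.02, 1.11 and 1.77 in forebrain and 2.36, 2.45 and 1.74 in hindbrain. Their differences in dorsal midbrain were 1.04 ± 0.18 (SE), adjusted p = 0.00216 for Loxl1 and 0.97 ± 0.19 (SE), adjusted p = 0.00379 for Crtap. P4ha3 was lower there, with a difference of -2.31 ± 0.33 (SE), adjusted p = 0.000755, and so was Bmp1, the protease that trims procollagen ends, with -0.59 ± 0.10 (SE), adjusted p = 0.00146. Against the ventral midbrain 2 genes of synthesis were higher in dorsal midbrain, Loxl1 and Crtap, and 11 were lower, where 12.4% and 11.4% of all genes were, led by P4ha3 at -3.81, Glt25d2 at -1.67, Plod2 at -1.53 and Bmp1 at -1.25. In hindbrain 3 were higher, where 4.03% of all genes were, P4ha3 by 2.27, Bmp1 by 0.97 and Plod2 by 0.74, and Loxl1 was lower, with -0.76. In forebrain 7 were lower, where 2.3% of all genes were, and 0 higher, among them Serpinh1, the collagen chaperone of the endoplasmic reticulum, with a difference of -0.999 ± 0.18 (SE), adjusted p = 0.0139. In alar plate 4 were lower, where 3.41% of all genes were, and 0 higher.

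**Figure D5:**
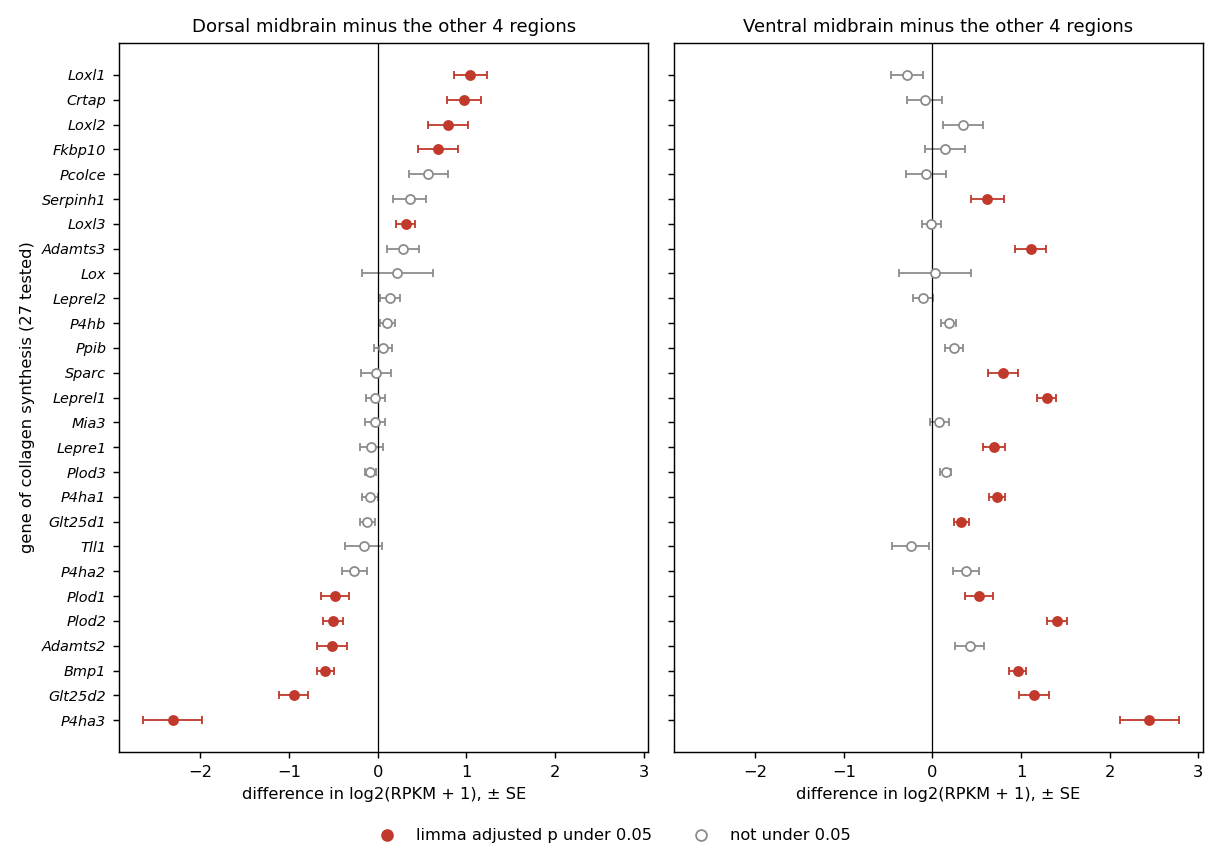
Difference in log2(RPKM + 1), with its standard error, for the 27 tested genes of collagen synthesis in dorsal midbrain (left) and ventral midbrain (right) against the mean of the other 4 regions; filled points had a limma adjusted p under 0.05. P4ha3 lies farthest left in dorsal midbrain, at -2.31, and farthest right in ventral midbrain, at 2.45.

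Of 9 genes of collagen receptors, 7 were tested, and 2 were higher and 1 lower in dorsal midbrain, where 18.2% and 13.8% of all genes were. In dorsal midbrain Itga11, the alpha-11 subunit that binds fibrillar collagen, and Ddr1, a receptor tyrosine kinase for collagen, were higher by 0.86 ± 0.23 (SE), adjusted p = 0.0155 and by 0.59 ± 0.14 (SE), adjusted p = 0.00731. Itga11 reached 1 RPKM only in dorsal midbrain 1 and 2 and alar plate 1, so it was tested only through the levels then compared. Itga2, the alpha-2 subunit, was lower in dorsal midbrain, with a difference of -0.55, and higher in hindbrain, with 1.51 ± 0.16 (SE), adjusted p = 0.00011. It was at 4.25, 3.52 and 4.58 RPKM in hindbrain, against 0.64, 0.604 and 0.642 in dorsal midbrain, 1, 0.948 and 0.861 in ventral midbrain, 0.663, 0.409 and 0.0679 in alar plate and 0.754, 1.38 and 2.35 in forebrain, and the 3 hindbrain libraries lay above all others. Itgb1, the beta subunit shared by these integrins, was higher in ventral midbrain by 0.64 ± 0.10 (SE), adjusted p = 0.00121.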

How the data were processed

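RNA from 5 dissected regions of mouse brain at E12.5 was sequenced, 3 samples a region, from 200 ng of RNA per library, per the labels' protocols. The authors deposited RPKM values for 24264 genes, 1 column per sample. Bowtie and the build mm9 are named per the submitters' processing notes. For versions, annotation, counting and its use of strand the sources used here give nothing, so reads of overlapping genes cannot be told apart. Whole reads were recovered from the RPKM steps for 16597 of 16612 genes above 0 in at least 10 libraries (99.9%, tolerance 0.02 to 0.15 reads). The floor of 3 reads stands for counting error alone.

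The 13745 genes that reached 1 RPKM in 3 libraries or more were fitted with limma 3.58.1 (R 4.3.3), with a variance trend on log2(RPKM + 1). This pseudocount of 1 understates changes of low genes. All 15 samples entered 1 fit. Two-sided p-values were adjusted by Benjamini-Hochberg over all tested genes of a comparison, and a call means an adjusted p under 0.05. The procedures were tested on simulated data. Relations across samples used 100000 permutations of all 15 libraries regardless of region, so 1e-05 is the smallest p they can give. The members, gene lists and tests were chosen with earlier results of these data known, and the region genes Foxa2, Lmx1a, Hoxa2, Hoxb3, En1, En2, Pax7 and Pax3 and the marker sum without Crabp2 were chosen after seeing the data. Values in every sample were given for Col1a1, Col1a2, Col3a1, Col2a1, Col4a1 and Col4a2, for up to 3 members of a class with the highest mean, and for up to 3 called members per direction with the largest difference in each comparison. Of each other list, up to 4 called genes with the largest difference were named, beside genes named as examples after their values were seen. Promoter windows are from RefSeq. A check of the forebrain label is not reported here.

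Alternatives were a pseudocount of 0.1, no filter or a filter of 5 RPKM, quantile normalization, scaling by median ratios, removal of a trend with gene length, limma-voom on recovered reads, a block for the replicate number or for runs of the number after TS in the titles, whose meaning the labels do not give, and leaving out libraries.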

Additional observations from a re-analysis of the deposited data

How the results depend on the processing

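All 40 called differences of single members kept their direction under every one of 1001 alternative values, and 932 stayed called while 69 no longer passed. Of those lost, 16 came without dorsal midbrain 1 and 15 without dorsal midbrain 2. The counts moved more. With a filter of 5 RPKM, which tests fewer genes, 14 members differed between the 5 regions and 1 was called in forebrain. With no filter 6 were called in ventral midbrain and 1 between dorsal midbrain and alar plate. Limma-voom called 5 in ventral midbrain and 1 in forebrain. Scaling by median ratios called 2 in alar plate, and quantile normalization 5 in hindbrain. With the trend of gene length removed 5 were called in forebrain and 6 in hindbrain. Without the 3 libraries that stand apart, the counts were 10 in ventral midbrain, 3 in alar plate, 15 in forebrain, 12 in hindbrain and 9 between dorsal midbrain and alar plate. The cause of these changes was not tested.

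Leaving out 1 library gave 10 to 25 members between the 5 regions, 8 to 21 in dorsal midbrain, 2 to 12 in ventral midbrain, 1 to 7 in alar plate, 0 to 9 in forebrain and 2 to 9 in hindbrain. It gave 8 to 15 between dorsal and ventral midbrain, 0 to 15 between dorsal midbrain and alar plate, and 4 to 9 of the 15 marker relations, where 8 passed over all libraries, 4 of them relations of Col1a1 and Col3a1 that the 2 clusters of libraries do not allow to be tested. The highest counts came without alar plate 1, except in forebrain, where they came without dorsal midbrain 3.

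The labels do not give which embryos the samples came from, and the main fit did not pair them by replicate number. Correlations of same-numbered deviations had medians of 0.308, 0.149 and 0.239 for the 3 numbers and reached down to -0.175. Of the 15 libraries 12 correlated best with their own number, a hint of pairing from the data and not the design. With the replicate block the counts were 22 between the 5 regions, 19 in dorsal midbrain, 5 in ventral midbrain, 2 in alar plate, 4 in forebrain, 4 in hindbrain, 12 between dorsal and ventral midbrain and 3 between dorsal midbrain and alar plate. With the block for TS numbers 1 member was called between dorsal midbrain and alar plate.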
